A study of Mus musculus with 20 samples.

Results

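H3K27ac was compared between mouse day 10 neurons given NMDA and day 10 neurons given DMSO alone. The comparison covered all 119345 regions for which both had a deposited value. The 3 chromatin tables of the series listed 322863 regions, and overlap between those tables was not examined. No region was selected by its value: every region of the NMDA and DMSO table was kept, and the regions were described by their width and by their level. Cells of the NMDA group, with the strain label 159.2, were neurons at day 10 of differentiation that received 200 µM NMDA for 6 h. Cells of the DMSO group had the same strain label, stage and duration, and received the vehicle only. Both groups were washed with a balanced salt solution before and after the treatment. Each group had 2 ChIP-seq libraries and 2 RNA-seq libraries. The series also followed progenitors and neurons at day 1 and day 10 by FAIRE-seq and by H3K27ac ChIP-seq.

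H3K27ac is acetylation of lysine 27 on histone H3. It is placed mainly by the coactivators CBP and p300, removed by histone deacetylases and read by bromodomain proteins, and it marks active promoters and enhancers. The same lysine can be methylated by Polycomb repressive complex 2, and a residue that is methylated cannot be acetylated at the same time. NMDA opens glutamate receptor channels that pass calcium, and calcium signalling in neurons is known to act on CREB, on CBP and on class IIa deacetylases. Long or strong stimulation of these receptors is also known to injure neurons.

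The deposited table gave each region 1 NMDA and 1 DMSO value, made from the pooled libraries of the group. Each value, called the level here, compared the pooled reads, with 16 added, to the scaled reads of 1 reference, with 16 added, as a log2 ratio, so a level of 0 is the reference and a level of 1 is 2-fold above it. The same reference stood under both columns, so the NMDA level minus the DMSO level depended only on the reads of both groups and on the 16 added reads. Whole reads were recovered for 100% of the regions. Because the libraries were merged, the H3K27ac values carry no replicate error and no test between groups was possible. The intervals printed for reads cover counting error only.

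On the deposited scale H3K27ac was lower after NMDA in most regions; how far this holds depends on the scaling, given below. The median level was 0.74 in NMDA neurons and 0.91 in DMSO neurons. The median difference, NMDA minus DMSO, was -0.21 on the log2 scale, and 5% of regions lay below -0.93 and 5% above 0.47. By the sign of the difference, 66.9% of the regions were lower after NMDA, 29.97% were higher and 3.15% were equal. With each column centred on its own median, which takes an offset of -0.17 out of every difference, the median difference was -0.04 and 53.4% of the regions were lower.

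The totals of the recovered reads were lower in NMDA as well. NMDA libraries together held 9.41 M reads in regions and DMSO libraries 12.9 M, where M stands for 1e+06, against 3.56 M for the reference. The log2 ratio of the totals was -0.46 (95% interval -0.459 to -0.457, binomial, counting error only). The median region held 22 reads in NMDA and 27 in DMSO. The sources used here do not say whether the pooled libraries were brought to a common depth, and the labels describe no added standard. A lower total amount of the mark, a lower yield of the ChIP and a lower depth cannot be told apart from these columns. A common factor on all reads, such as depth, would move all regions alike apart from the 16 added reads. The description below is therefore mainly of how regions differed from each other. A lower yield of the ChIP need not be such a common factor, so it may enter these differences too, which was not tested.

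At a threshold of 2-fold, a log2 difference of at least 1 in size, 4272 regions were lower after NMDA (3.58% of all regions) and 151 were higher (0.127%). With centred columns, 1632 regions were lower (1.37%) and 583 were higher (0.488%). This split turned with the scaling: with reads scaled to equal totals, 249 regions were lower and 3927 higher, and with the difference centred on the strongest decile of the regions, 124 were lower and 6185 higher. So a region is named lower or higher below only on the deposited or the centred scale, as stated. The 16 added reads limit these counts: a region with under 16 DMSO reads cannot be 2-fold lower as deposited even at 0 NMDA reads, which leaves 87303 regions (73.2%) that could be, and 78708 (65.95%) had the 16 NMDA reads needed to be 2-fold higher. The regions that were 2-fold lower as deposited had a median width of 634 bp and a median of 46 reads in NMDA and 124 in DMSO, where the 87303 regions that could be called had a median width of 389 bp and a median of 43 reads in DMSO. Good coverage in DMSO is thus partly built into the call. Their median level was 1.03 in NMDA and 2.20 in DMSO. The 151 regions that were 2-fold higher had a median width of 230 bp, with a median of 39 reads in NMDA and 9 in DMSO and a median level of 1.12 in NMDA and 0.031 in DMSO. Of the 2-fold lower regions 26.0% were at least 1000 bp wide, and of the 2-fold higher regions 1.32%.

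**Figure D1:**
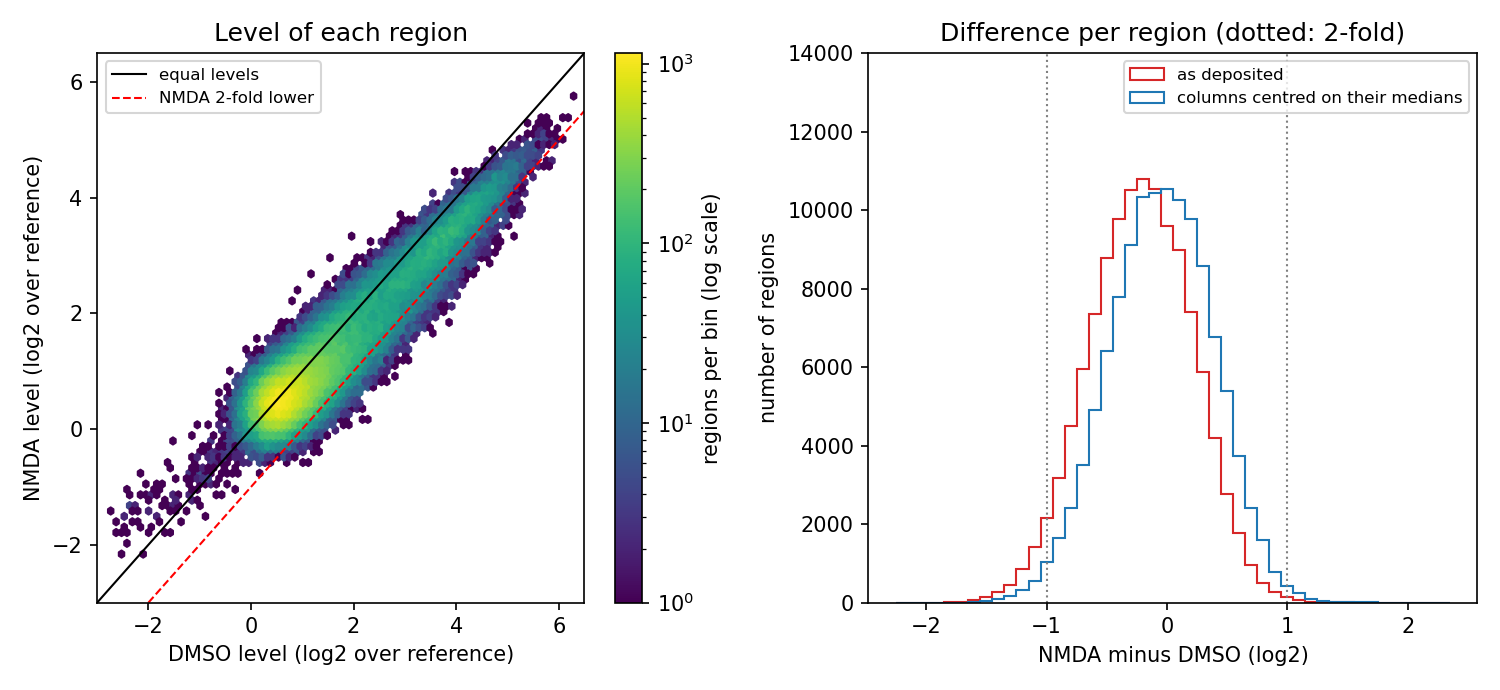
Left, the NMDA level of each region (y axis, log2 over the reference) against its DMSO level (x axis, log2 over the reference), coloured by the number of regions per bin on a log scale; the 12 regions with the lowest levels are outside the axes. Right, the number of regions (y axis) by NMDA minus DMSO (x axis, log2, bins centred on 0), as deposited and with columns centred on their medians; the peak as deposited lies left of 0, and the strong regions at the upper right of the left panel lie below the line of equal levels.

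The columns kept much the same order of regions. Over the 119345 regions the Pearson correlation of the NMDA and the DMSO level was 0.92, a description of regions that share libraries and a reference. The SD of the level was 0.960 in NMDA and 1.09 in DMSO, so the NMDA levels spread over a narrower range. The slope of the NMDA level on the DMSO level was 0.81. Taken as the inverse of the slope of the DMSO level on the NMDA level, it was 0.96. Its size thus depended on the direction of the fit. Of the 100 regions that were strongest in NMDA and the 100 strongest in DMSO, 69 were the same, and of the 1000 strongest in each, 714. The region with the highest level was the same in both columns, region 90672 of the table, 1438 bp wide. It had a level of 5.79 in NMDA and 6.25 in DMSO, from 2028 and 2793 reads, and its difference of -0.46 was close to the log2 ratio of the totals.

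Broad regions had the lower differences. In deciles of the regions by width, bins of equal numbers of regions, the median difference was 0.00 in the narrowest decile (median width 149 bp, the smallest width in the table), -0.17 in decile 5 (263 bp) and -0.51 in the broadest (1330 bp), and each decile from narrow to broad lay below the one before. The narrowest decile had a median of 10 reads in NMDA and 10 in DMSO, and the broadest 349 in NMDA and 501 in DMSO. Regions at least 2-fold lower were 0.285% of the narrowest decile and 9.49% of the broadest, while regions at least 2-fold higher were 0.159% of the narrowest and 0.0168% of the broadest. Only 13.3% of the narrowest decile had the 16 DMSO reads that a 2-fold lower call needs, against 100% of the broadest, so these shares differ in large part by construction. Among the regions with 16 DMSO reads or more, which are chosen by one side of the difference, 2.15% of the narrowest decile were 2-fold lower. With centred columns the median difference was 0.17 in the narrowest decile and -0.34 in the broadest, so narrow regions stood above the typical region and broad regions below it.

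The same order held in fixed classes of width. The median difference was -0.06 for the 33736 regions under 200 bp, -0.19 for the 53050 regions of 200 to 499 bp and -0.38 for the 20867 regions of 500 to 999 bp. It was -0.51 for the 11060 regions of 1000 to 1999 bp and -0.59 for the 632 regions of 2000 bp or more. In that broadest class, 15.5% of the regions were at least 2-fold lower against 0.445% of the regions under 200 bp, of which 27.3% had enough DMSO reads to be so. The 11060 regions of 1000 to 1999 bp held 48.8% of all DMSO reads in regions.

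The 16 added reads pull low-count regions towards a difference of 0, and narrow regions have few reads, so the width classes were also compared by reads summed over the class, which the added reads do not enter. After the scaled reference was subtracted, the log2 ratio of the summed reads, NMDA over DMSO, was -0.05 in the narrowest decile by width, -0.24 to -0.53 in the deciles between, and -0.58 in the broadest. The same scaled reference was subtracted from both groups, and whether it suits the depth of each is not known. Without the subtraction the log2 ratio was -0.03 in the narrowest decile, -0.16 in the next and -0.53 in the broadest. The narrowest decile thus differed from the others in summed reads, with and without the subtraction, as well as in the median level.

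**Figure D2:**
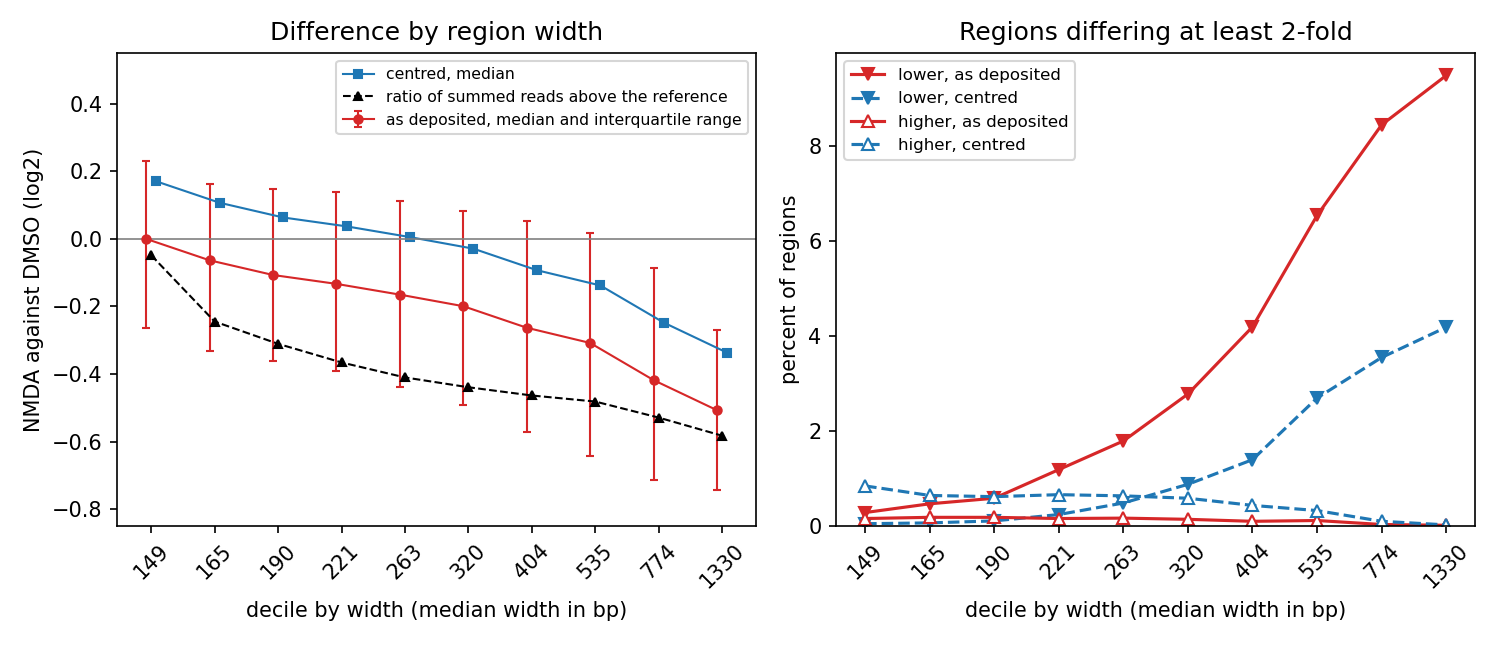
Left, NMDA against DMSO (y axis, log2) in deciles of the regions by width (x axis, median width in bp): the median and the interquartile range of the deposited differences, the median of the centred differences, and the log2 ratio of summed reads above the scaled reference. Right, the percent of regions (y axis) at least 2-fold lower or higher in the same deciles; the share of regions 2-fold lower as deposited is 0.285% at the left, where 13.3% of the regions had enough reads for such a call, and 9.49% at the right, where all had.

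Among the widest regions, single cases varied. The 1000 widest regions, from 1898 to 3239 bp, had a median difference of -0.58, and 957 of them were lower after NMDA. The widest, region 92955 with 3239 bp, had a level of 4.35 in NMDA and 5.15 in DMSO, a difference of -0.79. Region 9188, with 3209 bp, had a level of 3.76 in NMDA and 5.29 in DMSO, a difference of -1.54 from 965 and 2832 reads. Region 73140, with 3159 bp, had a level of 4.34 in NMDA and 4.71 in DMSO, a difference of -0.37. These 3 regions of like width thus differed by more than the counting error of their reads, since the 95% intervals of the log2 read ratio were -0.89 to -0.71, -1.66 to -1.45 and -0.46 to -0.28.

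Strong regions in DMSO had the lower differences too, but the size of this trend depended on the column that ordered the regions. In deciles by the DMSO level, the median difference was 0.25 in the weakest, -0.23 in decile 5 and -0.54 in the strongest. The strongest decile had a median level of 3.28 in NMDA and 3.78 in DMSO and held 57.6% of all NMDA reads and 61.9% of all DMSO reads in regions. The DMSO level is itself one side of the difference, so these deciles are not independent of it. Ordered by the mean of both columns, the median difference was -0.07 in the weakest decile, -0.15 in decile 5 and -0.50 in the strongest. Ordered by the NMDA level, it was -0.44 in the weakest decile, -0.04 in decile 6 and -0.45 in the strongest.

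The strongest decile was therefore low under all 3 orders, at -0.54, -0.50 and -0.45, while the weakest decile was at 0.25, -0.07 or -0.44. The difference between the strongest and the weakest decile was -0.79 by the DMSO level, -0.43 by the mean and -0.01 by the NMDA level. In reads summed above the scaled reference, with deciles by the mean of both columns, the log2 ratio was -0.41 in the second weakest decile and -0.56 in the strongest. In the weakest decile the NMDA sum or the DMSO sum did not exceed the scaled reference, so no such ratio is given. The medians of the deposited differences in the same deciles were -0.10 and -0.50, so the trend with level was smaller in summed reads. Without subtracting the reference, the log2 ratios of summed reads in these deciles were -0.22 and -0.53. How much smaller the trend was thus depended on the subtraction.

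**Figure D3:**
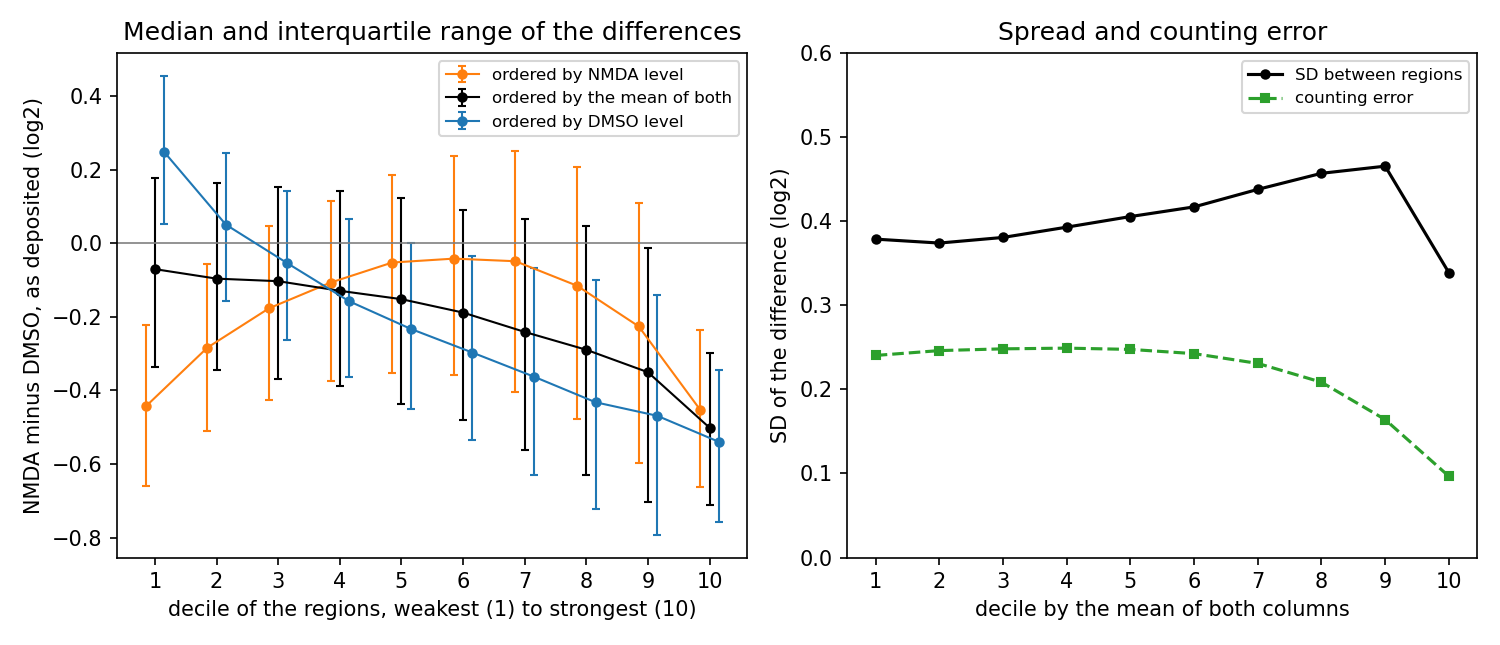
Left, the median and the interquartile range of NMDA minus DMSO (y axis, log2, as deposited) in deciles of the regions from weakest to strongest (x axis), ordered by the NMDA level, by the mean of both columns and by the DMSO level; the 3 orders meet near -0.5 in the strongest decile and part in the weakest. Right, the SD of the difference between regions and the SD that counting error gives (y axis, log2) in deciles by the mean of both columns.

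Regions of like level differed from each other by more than counting gives. In deciles by the mean of both columns, the SD of the difference was 0.379 in the weakest decile, against a counting SD of 0.240. It was 0.465 in decile 9, against 0.164, and 0.339 in the strongest decile, against 0.0967. How much of this spread lies between cultures and how much between regions cannot be told apart, since each column is 1 merged value. Decile 9 also held the largest share of regions at least 2-fold lower, 9.47%, against 7.42% of the strongest decile.

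The regions strongest in DMSO were lower after NMDA on the deposited scale. Among the 1000 strongest in DMSO, all 1000 were lower, with a median difference of -0.67 as deposited and -0.50 centred and a deposited range of -1.73 to -0.03, and 112 were at least 2-fold lower. Chosen by the NMDA column instead, 972 of the 1000 strongest were lower, with a median of -0.51, and 17 were at least 2-fold lower. Each set was chosen by one side of the difference, and both had a median below that of all regions. Of the 10 regions strongest in DMSO, region 39623 had the largest difference, with a level of 4.64 in NMDA and 5.88 in DMSO from 762 and 1822 reads. Of the 10 strongest in NMDA, region 17216 had the smallest, with a level of 5.31 in NMDA and 5.41 in DMSO from 1783 and 1919 reads.

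Width and level are tied, with a Pearson correlation of 0.80 between log2 width and the DMSO level over the 119345 regions, so the regions were also grouped by both. Within each quintile by the mean of both columns but the weakest, the median difference was lower in the broadest quintile by width than in the narrowest. In the middle quintile by mean level it was -0.05 for the narrowest quintile by width (3051 regions) and -0.39 for the broadest (787 regions). In the strongest quintile it was -0.21 for the narrowest (70 regions) and -0.49 for the broadest (17537 regions). The exception was the weakest quintile, where the 42 broadest regions had a median of 0.08 and the 12253 narrowest -0.05.

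Within quintiles by the DMSO level the order by width turned. In the middle quintile by DMSO level the median difference was -0.36 for the narrowest quintile by width (3297 regions) and -0.01 for the broadest (818 regions). In the strongest quintile all width quintiles lay between -0.52 and -0.40. In the 4 weaker quintiles by DMSO level the broadest regions were higher than the narrowest. So the lower differences of broad regions held within quintiles by mean level outside the weakest, and not within quintiles by DMSO level below the strongest. Levels were not equal within a quintile. In the strongest quintile by mean level, the median mean level was 1.95 for the narrowest regions and 3.06 for the broadest. How much of the order by width there goes with level was not tested.

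**Figure D4:**
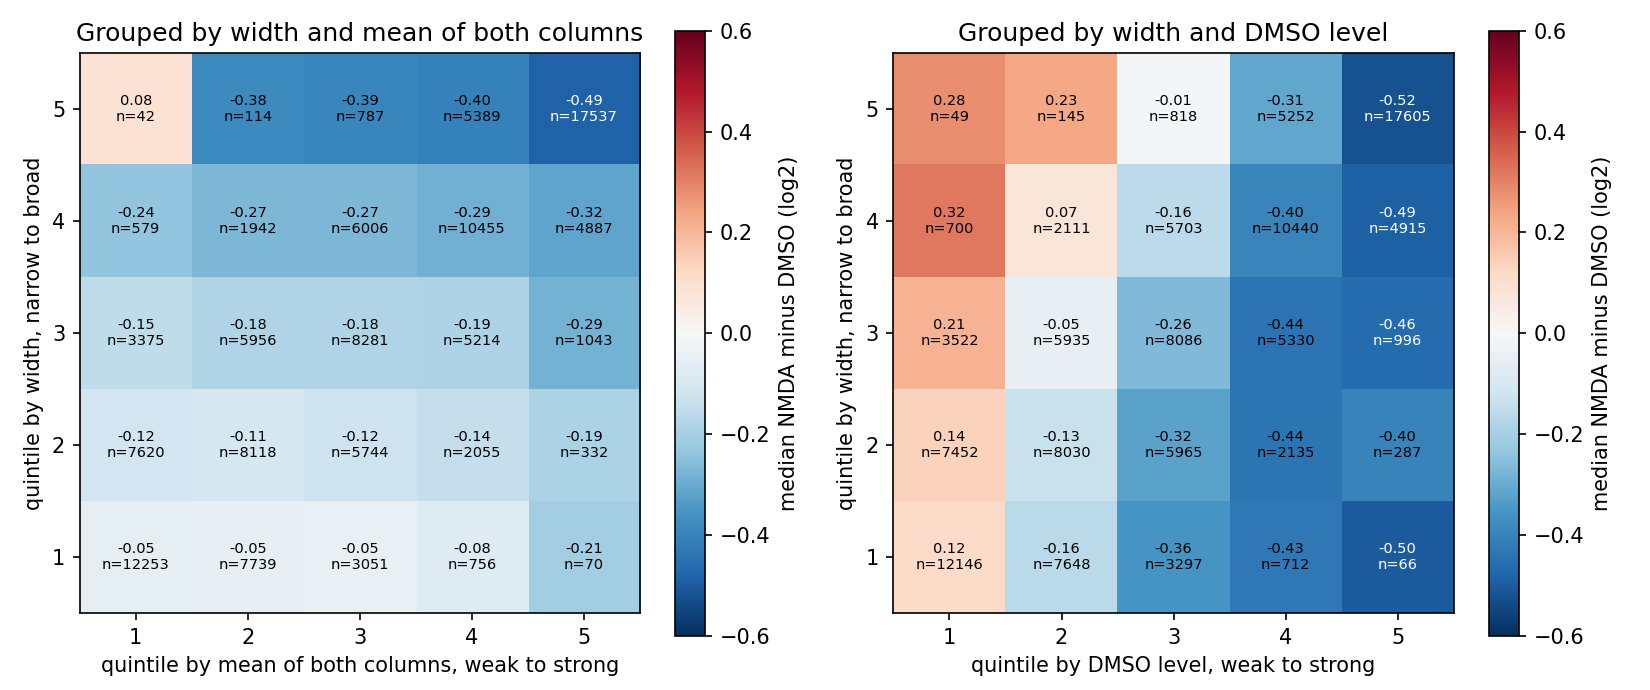
Median NMDA minus DMSO (colour and upper number of each cell, log2, as deposited) in quintiles by width (y axis, narrow at the bottom) and quintiles by level (x axis, weak at the left), with level as the mean of both columns (left) or as the DMSO level (right); n is the number of regions. With the mean of both columns, the top cell is lower than the bottom cell in all columns but the weakest; with the DMSO level, it is higher in all columns but the strongest.

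The regions with the largest differences were taken among those whose mean level was above the median region, by the centred difference. Their DNA is not shown because the table gives them a number and a width only. Region 98426, 291 bp wide, had the largest difference upwards, with a level of 2.67 in NMDA and 1.14 in DMSO from 114 and 29 reads. Its difference was 1.53 as deposited and 1.70 centred, and the 95% counting interval of the log2 read ratio was 1.38 to 2.62. Region 13764, 178 bp wide, came next, with a level of 2.42 in NMDA and 0.91 in DMSO from 115 and 30 reads, a difference of 1.51. Against all regions, with a median width of 289 bp and a median DMSO level of 0.91, the first was of about median width and above the median level in DMSO, and the second was narrower and close to that level.

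The largest differences downwards were in broad regions. Region 3140, 984 bp wide, had a level of 0.15 in NMDA and 2.23 in DMSO from 28 and 170 reads. Its difference of -2.08 was the lowest of all regions, with an interval of the read ratio of -3.23 to -2.02. Region 79902, 1449 bp wide, had a level of 1.84 in NMDA and 3.85 in DMSO from 132 and 583 reads, a difference of -2.02. The first was near the reference in NMDA, whereas the second remained well above it.

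Regions that lay below the reference in DMSO, at a level under 0, were mostly higher after NMDA on the deposited scale. There were 2084 of them (1.75%), with a median of 18 reference reads, and their median difference was 0.43. Of them 1878 were higher after NMDA and 158 lower, and they included 71 of the 151 regions that were 2-fold higher as deposited and 213 of the 583 that were so when centred. The set was chosen by one side of the difference, so its direction is a description only. A few of them had a very heavy reference. The 103 regions more than 2-fold below the reference in DMSO, with a median of 845 reference reads, held 83152 reads in NMDA and 44973 in DMSO, against 596005 in the reference, and 93 of them were higher.

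The region with the most reads of all was of this kind. Region 65507, 1151 bp wide, held 44058 reads in NMDA and 22888 in DMSO, a difference of 0.94, over 254548 reference reads. A run of 12 regions with consecutive numbers, 117703 to 117714, had the lowest levels of the table, between -5.58 and -4.78 in NMDA and between -7.57 and -6.23 in DMSO. All 12 were higher after NMDA, 11 of them at least 2-fold, with 1066 reads in NMDA and 200 in DMSO over 110620 reference reads. No repeat or copy-number annotation was used here, so what these regions hold was not tested.

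RNA from the same treatment was used to describe the enzymes that handle the mark and the cell types in the cultures. In NMDA the RNA libraries had 20.1 M and 16.8 M reads, and in DMSO 20.1 M and 15.0 M. Deposited normalised counts were compared with limma-trend on log2(value + 1), at a Benjamini-Hochberg adjusted p under 0.05, for the 13888 genes with a mean of at least 10. The labels do not tell whether replicate libraries stem from different cultures, and the p-values then measure a spread that may be technical only. In bulk RNA, fewer cells of a type and less RNA per cell cannot be told apart.

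Of 32 genes that write, erase, read, supply or oppose H3K27ac, all 32 were tested; 2 rose, 12 fell and 18 did not pass, with a median log2 change of -0.19. Over all tested genes 20.5% rose and 21.5% fell, with a median of -0.01. By role, both writers fell, and of 13 erasers 1 rose and 1 fell. The counts rested in part on the DMSO libraries, since fewer of the 32 genes were called with either of them left out. Calls over all tested genes became fewer then as well.

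Both writers are large acetyltransferases that are recruited to enhancers by transcription factors. Crebbp, which encodes CBP, had 1270 and 1282 normalised counts in the NMDA libraries and 2349 and 2223 in the DMSO libraries. The NMDA libraries lay close together and well below both DMSO libraries, with a standard error of 0.08 around a log2 change of -0.84 (adjusted p = 0.000698 by limma; ± values below are standard errors). Ep300, which encodes p300, had 1650 and 1739 in NMDA and 2543 and 2257 in DMSO. Its NMDA libraries were also both below its DMSO libraries, at a log2 change of -0.50 ± 0.09 (limma adjusted p = 0.00336, or 0.0686 without DMSO replicate 1).

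The recruiting factor Crtc1, a calcium-responsive coactivator of CREB, had 1445 and 1291 normalised counts in NMDA and 2036 and 1938 in DMSO. It fell by 0.54 on the log2 scale (limma adjusted p = 0.00245). Creb1 itself had 859 and 964 in NMDA and 934 and 869 in DMSO, and its groups overlapped. Brd2, which encodes a bromodomain reader of acetylated histones, had 7138 and 7477 in NMDA and 10006 and 10549 in DMSO, a log2 change of -0.49 ± 0.09 (limma adjusted p = 0.00328, or 0.0564 without DMSO replicate 1 and 0.0697 without DMSO replicate 2). It was lower in both NMDA libraries than in either DMSO library.

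Of the 13 erasers, Hdac1, a class I deacetylase, rose. It had 783 and 890 normalised counts in NMDA and 500 and 466 in DMSO, a log2 change of 0.79 ± 0.10 (limma adjusted p = 0.00114). Hdac11 was the only eraser that fell, and the other 11, among them the class IIa genes Hdac4, Hdac5, Hdac7 and Hdac9, did not pass. The corepressor scaffold genes Ncor1 and Sin3a and the acetyl-CoA enzyme gene Acly fell as well. The calls of Hdac11, Ncor1, Sin3a and Acly were lost when either DMSO library was left out, with limma adjusted p between 0.136 and 0.311. That of Hdac11 was also lost without NMDA replicate 2 (limma adjusted p = 0.106), and that of Sin3a without NMDA replicate 1 (limma adjusted p = 0.0840).

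Of the 6 genes for methylation of the same lysine, 1 rose, 2 fell and 3 did not pass. Ezh1, a methyltransferase of Polycomb repressive complex 2, had 669 and 628 normalised counts in NMDA and 1006 and 904 in DMSO, a log2 change of -0.56 ± 0.10 (limma adjusted p = 0.00294, or 0.0571 without DMSO replicate 1). Suz12, a core subunit of that complex, had 954 and 1032 in NMDA and 1220 and 1312 in DMSO, a log2 change of -0.35 ± 0.09 (limma adjusted p = 0.0145, or 0.0800 without DMSO replicate 1 and 0.142 without DMSO replicate 2). Kdm6b, a demethylase of the methylated lysine, had 1218 and 1208 in NMDA and 911 and 884 in DMSO, a log2 change of 0.43 ± 0.08 (limma adjusted p = 0.00431, or 0.0532 without DMSO replicate 1 and 0.0571 without DMSO replicate 2). In every gene of the list given with values, except Creb1, the NMDA and DMSO libraries did not overlap. Apart from the writers and Creb1, these genes were chosen by their small p in the same libraries, so this is built into the choice. The share of such genes over all tested genes was not counted. Whether any of these transcript changes bears on the H3K27ac levels was not tested.

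**Figure D5:**
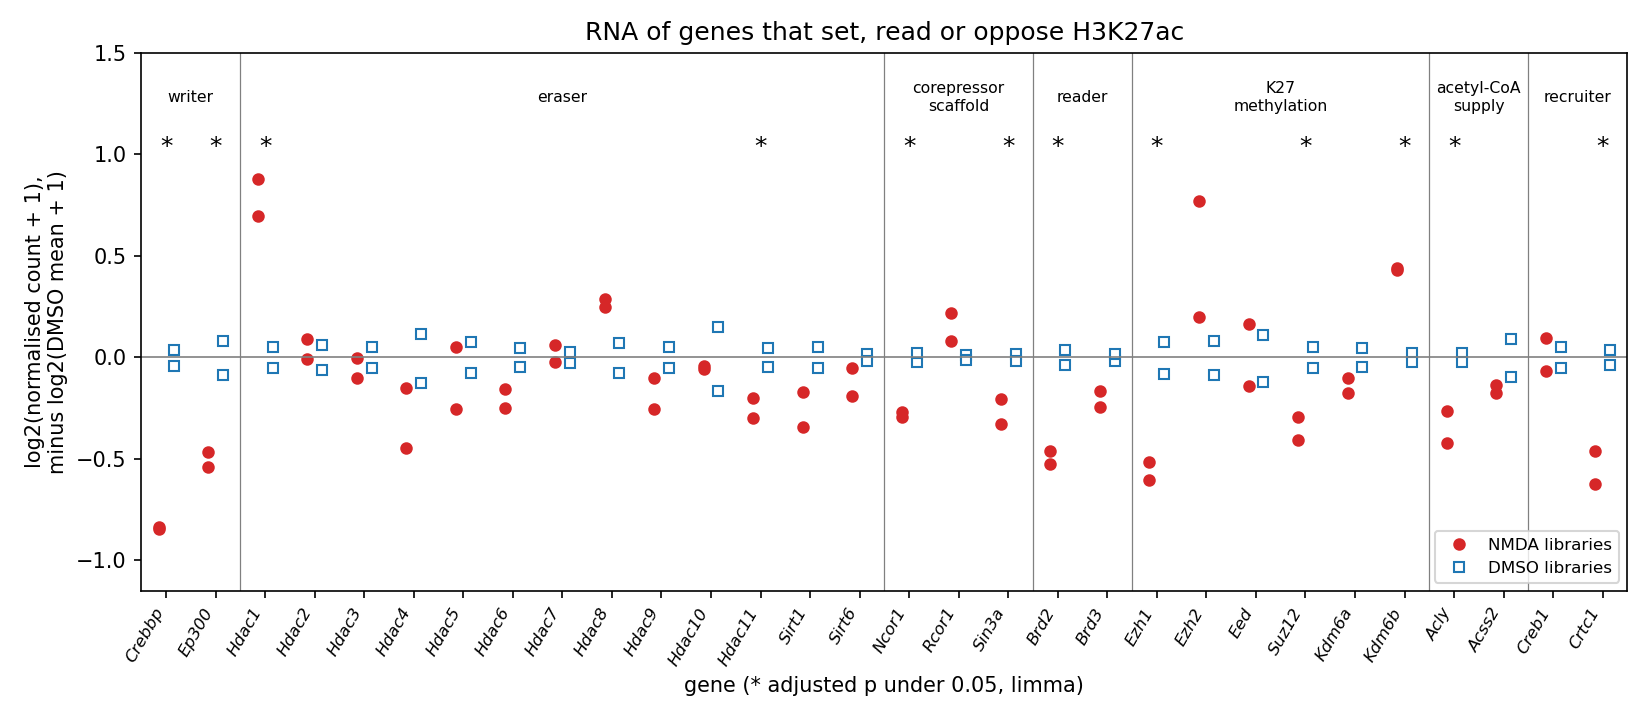
Log2(normalised count + 1) of each RNA library minus log2(DMSO mean + 1) (y axis) for genes of the H3K27ac list (x axis), grouped by role, with NMDA libraries as filled points left of the DMSO libraries as open squares; a star marks an adjusted p under 0.05 by limma. Crebbp, Ep300, Brd2 and Crtc1 lie below 0 in both NMDA libraries, and Hdac1 and Kdm6b above.

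The RNA of cell markers also differed between the groups. Neuronal genes were high in all 4 libraries. The 10 neuron markers summed to 136957 and 121061 normalised counts in NMDA and 146950 and 150240 in DMSO. The mesenchymal markers given below summed to more than this in NMDA and to less in DMSO. Of the 10 neuron markers, 4 fell (Rbfox3, Nefm, Dcx and Map2, listed as Mtap2), 1 rose (Elavl4) and 5 did not pass. Over all tested genes 21.5% fell and 20.5% rose. Without DMSO replicate 1, and likewise without DMSO replicate 2, 2 of the 10 fell and 0 rose. Of 5 NMDA receptor subunit genes 4 fell, among them Grin1, the obligatory subunit, with 4287 and 3161 in NMDA and 5594 and 5289 in DMSO (log2 change -0.56, limma adjusted p = 0.0110, or 0.110 without DMSO replicate 1 and 0.0640 without DMSO replicate 2). With either DMSO library left out, 2 of the 5 fell, Grin2b and Grin3a. The 4 genes for glutamate and GABA transmitter identity did not pass. With either DMSO library left out, calls over all tested genes became fewer as well.

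Markers of progenitors, astrocytes and mesenchymal cells were also detected, at levels that differed widely between genes. Hes5, a Notch target of neural progenitors, had 86.0 and 75.5 normalised counts in NMDA and 44.0 and 40.7 in DMSO, whereas the collagen gene Col3a1 had 94091 and 127266 in NMDA and 49930 and 44801 in DMSO. Of these 19 genes 18 rose, with a median log2 change of 0.96. Over all tested genes 20.5% rose, with a median log2 change of -0.01. The 7 mesenchymal genes and the 7 progenitor genes all rose, and of the 5 astrocyte genes 4 did. Fewer of the 19 genes were called without DMSO replicate 1, and the calls lost were mainly of progenitor and astrocyte genes. Rises over all tested genes also became fewer without that library, so the loss is not particular to these markers. The 19 genes summed to 233157 and 318963 normalised counts in NMDA and 127011 and 121633 in DMSO, of which the 7 mesenchymal genes made up 200629 and 273247 in NMDA and 108398 and 99031 in DMSO. The defining genes of microglia and of pluripotent cells were near 0: 5 microglial genes summed to 13.2 and 11.6 in NMDA and 9.88 and 6.00 in DMSO, and 3 pluripotency genes to 9.66 and 12.6 in NMDA and 9.88 and 4.79 in DMSO. The ChIP libraries came from cultures under the same labels, and what share the cell mixture has in the H3K27ac differences was not tested.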

How the data were processed

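H3K27ac ChIP-seq and RNA-seq of day 10 neurons were used. Per the submitters' processing notes, reads were handled with Bowtie, TopHat, HTSeq and DESeq on mm9. Versions, roles, the peak caller and strandedness are not given in the sources used for this work. The authors deposited the H3K27ac levels as log2 merged enrichment per region, with a width in bp, and the RNA as normalised read counts, a signal per gene and library; deposited columns without a sample numbered 0. Region positions and DNA were not used here.

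From the levels, whole reads were recovered for 100% of regions (tolerance 1e-06 on the log2 scale). The reference entered both columns with a factor of 0.446. Whole reads were also recovered for 100% of RNA values (tolerance 0.01). Centring subtracted each column's median. Deciles and quintiles were formed by rank. Intervals are 95% binomial. RNA was fitted with limma 3.58.1 (R 4.3.3), pseudocount 1, mean of at least 10, 2-sided, threshold 0.05; alternatives were the count models of edgeR 4.0.16 and DESeq2 1.42.0, fitted to recovered reads. Read recovery and the RNA fit were tested on simulated data. Tests per library had been planned for H3K27ac but the deposited values are merged, so sizes are given instead.

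The gene and marker lists, and the rule for named items, were chosen with earlier results of these data known. Named regions were the 2 largest centred differences in each direction above the median mean level; the strongest regions, the widest, and those below the reference were added after their values were seen. Named genes were the writers and up to 8 others of the H3K27ac list with the smallest p, some of which are not reported here; Creb1, the genes given by name only, and the markers are named outside that rule. Map2 was matched by its older symbol in the RefSeq table.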

Additional observations from a re-analysis of the deposited data

How the results depend on the processing

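With 1 read added in place of 16, the median difference was -0.33, 18361 regions were 2-fold lower and 4441 higher as deposited, 8774 lower and 8401 higher when centred, the broadest minus the narrowest decile was -0.53 and the strongest minus the weakest -1.06; with 64 added these were -0.10, 764, 7, 449, 20, -0.45 and -0.58. Using only regions above the median mean level, the median difference was -0.33, 47 regions were 2-fold higher, 705 lower when centred, and the differences by width and level were -0.40 and -0.81; with at least 50 reads in both columns together these were -0.35, 74, 738, -0.37 and -0.75. In regions of at least 1000 bp the median difference was -0.51, 1112 regions were lower and 2 higher, 59 and 54 when centred, and the differences by width and level were -0.10 and -0.44. Scaled to equal totals, 249 regions were lower and 3927 higher; centred on the strongest decile, 124 and 6185. At 1.5-fold, 23571 were lower and 3001 higher, 12769 and 8072 when centred. In 4 bins in place of 10, the difference by width was -0.39 and that by level -0.61.

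The difference by level was -0.43 ordered by the mean of both columns and -0.84 by DMSO reads per kb. In orders and sets chosen after seeing the data, it was -0.0095 by the NMDA level and -0.16 in summed reads above the reference, strongest minus second weakest decile; without regions below the reference in DMSO, 80 regions were higher, and 370 when centred. The difference by width turned to 0.087 within the interquartile range of DMSO levels, where the order uses one side of the difference; the cause was not tested. Centring on column means gave counts within 1.5 times of those on medians.

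Leaving out 1 RNA library gave 1069 to 3033 rises and 915 to 3334 falls over all genes, with 1069 and 915 without DMSO replicate 1 and 1455 and 1391 without DMSO replicate 2. In the H3K27ac list it gave 1 to 3 rises and 3 to 14 falls, in the neuron markers 2 to 6 falls and in the non-neuronal markers 10 to 19 rises. With 1 library left in a group, its spread is assumed to be like that of the other group. The other alternatives kept these counts within 1.5 times, with DESeq2 at 2249 rises and 2315 falls. Deviations of same-numbered RNA libraries correlated at 0.34, with 2 pairs only; the replicate block gave 3685 rises and 3782 falls, and 3 rises and 16 falls in the list. For the 10 named genes of the list, 111 of 120 values under the alternatives stayed called in the same direction, and the other 9 missed the threshold without a DMSO library. No paired analysis was possible for H3K27ac because the libraries are merged, and the alternatives that need values per library were not run. Depth limits single regions: the median counting SD of a difference was 0.241 on the log2 scale.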

Other observations

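Regions with neighbouring numbers in the table had differences that were alike to a small degree. Over 119344 pairs of consecutive numbers the Pearson correlation of the difference, NMDA minus DMSO, was 0.26, over pairs 10 numbers apart 0.09 and over pairs 500 apart 0.00; the regions share libraries and a reference. With the trend on the mean level removed it was 0.28 for consecutive numbers. Of the regions 2-fold lower as deposited, 26.6% had such a region next to them by number, against 6.86% of all regions. The DMSO levels of consecutive numbers also correlated, at 0.32, and the call needs enough DMSO reads. The 2 shares were not matched for this. The longest runs of 2-fold lower regions held 6 regions, 69060 to 69065, with differences down to -1.19, and 112353 to 112358, with differences down to -1.39. Among regions 2-fold higher as deposited the longest run held 11. The sources used here do not say whether the numbers follow the genome.

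The decile of regions with the most reference reads per kb of width had the median difference nearest to 0. In deciles by that measure, the median difference was -0.21 in the lightest, -0.26 in deciles 2 and 5 and -0.09 in the heaviest. It thus did not rise steadily. The log2 ratio of summed reads above the scaled reference was -0.60 in the lightest, -0.62 in decile 2 and -0.37 in the heaviest. The heaviest decile also had the lowest median DMSO level, 0.42 against 0.98 in the lightest.

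The NMDA and DMSO columns lay closer together than the stages of the same series, in a separate table of 140641 regions whose values were made separately. The SD of the difference was 0.427 for NMDA minus DMSO, 0.663 for day 1 minus progenitors and 0.845 for day 10 minus day 1. The Pearson correlation of the columns over regions was 0.92, 0.85 and 0.71 in the same order. These are descriptions of separately listed regions, whose overlap was not examined, with no test between them.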
